A study of Mus musculus with 12 samples.

Results

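The chemokine genes Cxcl9 and Cxcl10 and their receptor gene Cxcr3 were followed through 93126 single cells of MC38 tumors, a colon carcinoma line of C57BL/6J (B6) mice grown under the skin. The 3 genes were found by name among the 27457 rows of the gene table, and their counts were summed per cluster and per tumor. All hosts were female mice aged 8 to 12 weeks, either B6 or F1 offspring of C57BL/6J and a Collaborative Cross (CC) strain, an inbred line bred from several founder strains. When tumors measured 75 to 110 mm3, each mouse was given a single 200 µg dose of isotype control antibody (2A3) or of the PD-1 antibody 29F.1A12 (aPD1), and tumors were taken 48 h later, so every tumor had received an antibody. Cells were sorted to hold 90% CD45+ and 10% CD45- cells, and 12 libraries of 4 hashtagged specimens gave 48 tumors. The study classed CC001, CC002 and CC075 hosts as responders (10 isotype and 10 aPD1 tumors) and CC036, CC079 and CC080 hosts as non-responders (9 and 9), from how each strain responded in an earlier screen; the labels give the strain only, and class cannot be told apart from what else these 3 and 3 strains differ in. B6 (3 and 3 tumors) and CC007 hosts (2 and 2) had no class here and are described without a test.

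CXCL9 and CXCL10 are small secreted proteins that draw cells carrying CXCR3 along a gradient. Interferon-γ from T and NK cells induces both in macrophages, dendritic cells and stromal cells, and CXCL10 also answers type I interferon and NF-κB. CXCR3 is a G protein-coupled receptor of activated T cells, NK cells, some regulatory T cells and plasmacytoid dendritic cells. A further CXCR3 ligand gene, Cxcl11, was not analysed here.

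The ligand genes are neighbors on the minus strand of mouse chromosome 5. In GRCm38 Cxcl9 (ENSMUSG00000029417) spans chr5:92321347-92328079 with 4 exons, and Cxcl10 (ENSMUSG00000034855) spans chr5:92346638-92348889, also with 4 exons. The bases between them number 18558, and Cxcl10 lies within the span of Art3, a gene of the other strand at chr5:92331827-92414628. Cxcr3 (ENSMUSG00000050232) lies on the X chromosome at chrX:101731535-101734269, on the minus strand, with 2 exons. The 250 bases before the start of each ligand gene are shown because the ligands differed in the cells and tumors where they were high. They come from the RefSeq table of GRCm38.p6, in which all 3 members had an entry, and are written 5′ to 3′ on the strand of the gene, with motif matches in capitals.
Cxcl9, chr5:92328080-92328329, minus strand: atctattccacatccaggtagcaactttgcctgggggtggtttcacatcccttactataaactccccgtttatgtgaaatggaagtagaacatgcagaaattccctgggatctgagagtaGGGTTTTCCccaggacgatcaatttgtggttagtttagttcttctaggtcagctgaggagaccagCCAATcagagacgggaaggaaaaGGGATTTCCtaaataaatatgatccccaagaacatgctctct
Cxcl10, chr5:92348890-92349139, minus strand: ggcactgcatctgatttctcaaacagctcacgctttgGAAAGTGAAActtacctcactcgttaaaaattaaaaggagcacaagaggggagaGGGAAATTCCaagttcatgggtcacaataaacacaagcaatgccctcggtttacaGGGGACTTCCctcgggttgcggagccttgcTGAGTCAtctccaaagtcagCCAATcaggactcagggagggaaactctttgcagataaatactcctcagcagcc
Letters searched on both strands were the interferon-stimulated response element (ISRE: GAAA, any 2 bases, GAAA), the interferon-γ activated site GAS (TTC, any 3 bases, GAA), NF-κB in a form of 10 letters (GGG, any 3 bases, TTCC) and of 9 letters (GGG, any 2 bases, TTCC), AP-1 (TGAGTCA) and CCAAT. The Cxcl9 window held the 9-letter NF-κB form at 130 to 122 and at 42 to 34 bases before the start, and CCAAT at 65 to 61. The Cxcl10 window held an ISRE at 213 to 204 bases before the start, the 10-letter NF-κB form at 159 to 150 and at 104 to 95 (the latter also holds the 9-letter form), AP-1 at 74 to 68 and CCAAT at 54 to 50. Among 32851 promoter windows of this length, 2.98% held the ISRE letters, 7.02% GAS, 4.65% and 4.98% the 10-letter and 9-letter NF-κB forms, 4.46% AP-1 and 33.8% CCAAT. Neither ligand window held GAS letters and only the Cxcl10 window held the ISRE letters, which says nothing of binding. The longest run that the windows shared was CAGCCAATCAG, 11 bases around the CCAAT box.

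Some facts of the series bear on every value. Tumors gave 53 to 3082 cells and 88816 to 17713491 transcript counts (UMIs, each marking 1 captured transcript), with a median of 3333.5 UMIs per cell. The smallest tumor was a CC007 aPD1 tumor of 53 cells. Of all cells, 10176 carried a barcode sequence that was present in more than 1 library, and no barcode repeated within a library. Isotype and aPD1 tumors never shared a hashtag, so that hashtag and treatment cannot be told apart, and responder tumors mostly carried other hashtags than non-responder tumors. The same animal identifier was recorded for 2 tumors, a CC080 isotype tumor of pool 3 and a CC080 aPD1 tumor of pool 4. The authors' clusters carry numbers only. By marker lists, 10 clusters were monocyte/macrophage-like (68059 cells, macrophages below), 8 were T/NK-like (11486 cells), and the others were cDC2-like, cDC1-like, migratory DC-like, pDC-like, granulocytic-like, fibroblast-like or unnamed.

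Most Cxcl9 transcripts were in macrophages. Of its 299123 UMIs, 90.3% were in macrophages, at a level of 897 CPM, the gene's UMIs scaled to a common total, and 0.124% in T/NK cells, at 11.9 CPM. A Cxcl9 UMI was found in 33.9% of macrophages (median depth 3481 UMIs) and in 2.73% of T/NK cells (1874 UMIs). The highest levels were shared by cluster 21, led by the interferon-induced genes Ifit3 and Rsad2 (1214 CPM, lowest tumor 399, median 1212, highest 3457, 45 tumors), and cluster 5, led by Ly6i and Clec5a (1213 CPM, 153, 1160 and 3069, 47 tumors). Cluster 21 exceeded cluster 5 in 25 of 45 tumors, a mean log2 difference of 0.15 ± 0.67 (SD), so their order is within the spread between tumors. Cluster 26, led by Cxcl13 and complement C1q genes, followed at 1049 CPM and cluster 2, led by Ly6i and Ccl24, at 884 CPM. Cluster 4, led by Adgre4 and Ace, had 563 CPM. Cxcl9 is among the 10 leading genes of cluster 5, so its level by cluster is a description.

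Outside macrophages Cxcl9 was found in several stromal and dendritic groups. The fibroblast-like cluster 22 had 1030 CPM over 582 cells, with values from 119 to 1839 in the 9 tumors that had at least 20 such cells. Its Cxcl9 stood at 2029 UMIs for every 1000 UMIs of the macrophage lysozyme gene Lyz2, against 147 in macrophages. Migratory DC-like cells, marked by Ccr7 and Fscn1, had 545 CPM, cDC2-like cells 496 CPM and cDC1-like cells 380 CPM. In cDC1-like cells the median over 27 tumors was 316 CPM, from 60.5 to 967.

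Cxcl10 had another distribution over the same macrophages. Of 119515 UMIs, 92.0% were in macrophages (365 CPM), and 29.9% came from the 4300 cells of cluster 21 alone. There its level was 2014 CPM, with a lowest tumor of 949, a median of 1978 and a highest of 3211, and it exceeded the next macrophage cluster, cluster 4 (741 CPM), in 42 of 43 tumors, by a mean log2 difference of 1.61 ± 1.26 (SD). Since the clusters were made from the same counts, and Cxcl10 itself is among the 10 leading genes of cluster 21, this is a description. Clusters 2, 5 and 26, which carried most Cxcl9, had 274, 251 and 238 CPM of Cxcl10 and differed from each other by less than the spread between tumors. Granulocytic-like cluster 16 had 706 CPM over 529 cells, from 56.9 to 2864 in 7 tumors.

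Cxcl10 UMIs were also found in 4.32% of T/NK cells, against 20.2% of macrophages. In cluster 7, led by the T cell transcription factor genes Tcf7 and Lef1, Cxcl10 stood at 98.6 CPM and Cxcl9 at 13.6 CPM, or 7.25 Cxcl10 UMIs for each Cxcl9 UMI, against 0.41 in macrophages. Over all T/NK cells there were 640 Cxcl10 UMIs for every 1000 Lyz2 UMIs, against 60 in macrophages, while Cxcl9 stood at 207 and 147. Ifit3, an interferon-induced gene, stood at 65.7 CPM in cluster 7 and Isg15, another, at 295 CPM.

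Within macrophages the ligand transcripts were concentrated in a few cells. Among 68059 macrophages 23081 held Cxcl9, with a median of 5 UMIs and at most 393, and 13725 held Cxcl10, with a median of 3 and at most 224. The 5% of macrophages with the most UMIs of a ligand held 57.6% of all macrophage Cxcl9 and 73.7% of Cxcl10. To compare shares at 1 depth, each cell was thinned to 1000 UMIs and shallower cells were left out, which kept 63780 macrophages. Then 24.1% held Cxcl9, 12.7% Cxcl10 and 5.78% both, 1.88 times the 3.07% that the product of the single shares gives. This ratio was above 1 in 47 of 47 tumors with enough cells (lowest 1.33, median 1.77, highest 3.35). By cluster it was lowest in cluster 21, at 1.14, where 49.5% of cells held Cxcl10 and 29.9% Cxcl9, and it was 2.65 in cluster 4. The ceiling of this ratio is lower where the larger single share is higher, so it does not rank the clusters.

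**Figure D1:**
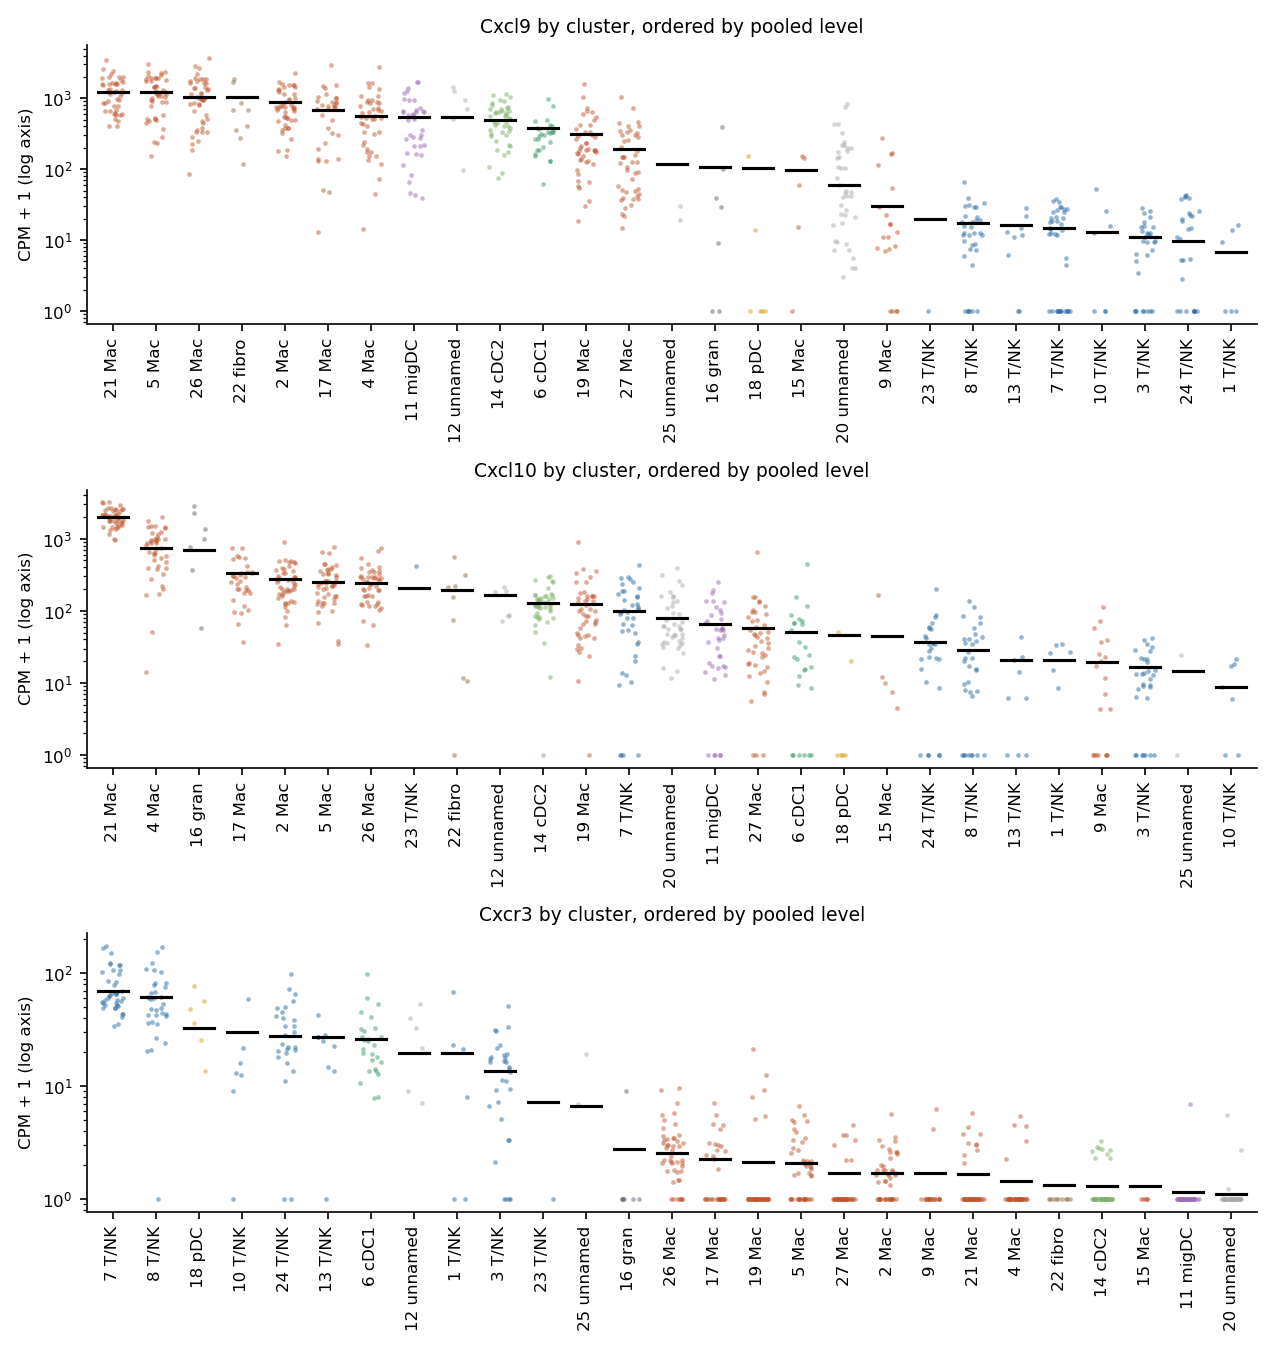
Levels of Cxcl9, Cxcl10 and Cxcr3 per authors' cluster, as CPM plus 1 on a log axis, each point a tumor with at least 20 cells of the cluster and each black line the level over all cells of the cluster. Cxcl9 was spread over the macrophage clusters, Cxcl10 stood highest in cluster 21 (2014 CPM over all its cells), and Cxcr3 stood highest in T cell clusters 7 and 8 (68.2 and 60.3 CPM).

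Cxcr3 was scarce, with 1767 UMIs in all cells (4.27 CPM). T/NK cells held 61.8% of them at 35.2 CPM, and a Cxcr3 UMI was found in 8.11% of T/NK cells (median depth 1874 UMIs). It was found in 13.6% of the deeper cDC1-like cells (6575.5 UMIs), 8.30% of pDC-like cells (3004.5 UMIs) and 0.0656% of migratory DC-like cells (3652 UMIs). With each cell thinned to 1000 UMIs the shares were 4.15% in T/NK cells, 2.39% in cDC1-like cells and 2.77% in pDC-like cells. The level was highest in cluster 7 (68.2 CPM, lowest tumor 33.2, median 62.4, highest 173, 40 tumors) and in cluster 8, led by the regulatory T cell factor gene Foxp3 (60.3 CPM). Cluster 7 exceeded cluster 8 in 19 of 29 tumors with a mean log2 difference of 0.55 ± 1.23 (SD), within the spread. NK-like cluster 24, led by Ncr1, had 26.7 CPM. The cytotoxic T cell cluster 3, led by Cd8a and Cd8b1, had 12.5 CPM, with a highest tumor of 50.1, although its Cd3e level of 1170 CPM was above the 742 CPM of cluster 7.

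The receptor was also found in dendritic cells that hold little T cell RNA. The cDC1-like cells (Xcr1, Clec9a) had 25.2 CPM and 13.9% of all Cxcr3 UMIs, and the pDC-like cells (Siglech, Ccr9) had 31.9 CPM. For every 100 UMIs of the T cell gene Cd3e there were 794 Cxcr3 UMIs in cDC1-like cells and 340 in pDC-like cells, against 4.34 in T/NK cells. Macrophages held 17.5% of Cxcr3 UMIs, but at 1.03 CPM and in 0.441% of cells, with 78.9 Cxcr3 UMIs per 100 Cd3e UMIs. No doublet caller was run, and the part of doublets or free RNA in that low level was not tested.

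Among T cells split by their own marker transcripts, Cxcr3 was highest in those with Cd4 and Foxp3. With each cell thinned to 1000 UMIs, Cxcr3 was found in 9.71% of cells with Cd4 and Foxp3 UMIs, 4.03% of those with Cd4 and no Foxp3 and 2.83% of those with Cd8a or Cd8b1 and no Cd4, and unthinned in 22.5%, 8.80% and 6.81%. The corresponding levels were 82.8 CPM (307 cells), 37.6 CPM (966 cells) and 21.8 CPM (4389 cells). Cells with an Ifng UMI, the interferon-γ gene, had 19.2 CPM of Cxcr3, and cells without had 44.8 CPM. The thinned shares were 2.34% of 2869 and 4.96% of 6347 cells. These groups pool cells of all tumors and are given without a test.

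The comparison of responder with non-responder hosts asks whether the ligands and the receptor differ between host backgrounds whose tumors respond differently to aPD1. In aPD1 tumors macrophage Cxcl9 was higher in responder hosts. By tumor it was 942, 2773, 927 and 791 CPM in CC001 (pools 1, 2, 4 and 12), 1680, 1681 and 1591 CPM in CC002, and 1520, 1481 and 676 CPM in CC075. In non-responder hosts it was 812, 542 and 688 CPM in CC036, 512, 373 and 334 CPM in CC079, and 369, 279 and 354 CPM in CC080. The responder range of 676 to 2773 (median 1500) overlapped the non-responder range of 279 to 812 (median 373) through 2 responder tumors. The log2 difference was 1.66 ± 0.34 (SE), or 3.16-fold, with an adjusted p = 0.00199 by edgeR's quasi-likelihood test with Benjamini-Hochberg adjustment over all 11873 genes tested. In this comparison 6.44% of genes passed the test (765, of which 516 were higher and 249 lower in responders). With the pool as a block 1398 genes passed, and without the CC001 tumor of pool 2, whose level stood apart, 509 genes passed and the Cxcl9 difference was 1.48 (adjusted p = 0.00683).

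In isotype tumors the same comparison did not pass. Macrophage Cxcl9 had a lowest tumor of 243, a median of 981 and a highest of 1403 CPM in responder hosts and 191, 367 and 1251 CPM in non-responder hosts, and these ranges overlapped almost fully. The log2 difference was 0.66 ± 0.33 (SE), adjusted p = 0.744 by edgeR, where 0.278% of genes passed (33 of 11873; 69 with the pool as a block). Non-responder isotype tumors were spread within strains, at 865, 1251 and 191 CPM in CC080 and 831, 337 and 934 CPM in CC036, while CC079 tumors were at 327, 225 and 367 CPM. B6 tumors had 1128, 1850 and 1309 CPM with aPD1 and 602, 1688 and 1001 CPM with isotype, and CC007 tumors 279 and 1023 CPM with aPD1 and 863 and 1505 CPM with isotype. The CC007 tumor at 279 CPM is the tumor of 53 cells.

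The Cxcl9 difference in aPD1 tumors passed the test in each part of the macrophages that was fitted. It was 1.57 (adjusted p = 0.00290) over clusters 2, 5 and 26, where 8.28% of 11310 genes passed edgeR's test, and 1.65 (adjusted p = 0.00593) over the other macrophage clusters, where 0.673% of 9960 genes passed. Cluster 21, which is one of those other clusters, was also fitted alone, which was not planned. There it was 1.65 ± 0.23 (SE; adjusted p = 2.16e-05), where 1.38% of 5576 genes passed edgeR's test. In cluster 21 the responder tumors had a lowest of 933, a median of 1967 and a highest of 3457 CPM. The non-responder tumors there had 399, 664 and 848 CPM. How many other genes had classes as far apart there was not counted. By group median, cluster 5 had 1769 CPM in responder and 579 CPM in non-responder aPD1 tumors, cluster 26 had 1604 and 334 CPM, cluster 2 had 1379 and 492 CPM, and cluster 4 had 589 and 514 CPM. The share of macrophages with a Cxcl9 UMI, at 1000 UMIs per cell, was 33.5% ± 10.5 (SD, n = 10) against 13.7% ± 4.52 (SD, n = 9), a difference of 19.9 percentage points (two-sided exact permutation p = 0.000108; adjusted over 20 tests of shares and ratios, 0.00217).

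That call depends on what is taken as the replicate. With counts summed per strain and treatment, so that 3 strains stood against 3, the Cxcl9 difference was 1.60 with an adjusted p = 0.166 by edgeR. In pools 1 to 5 alone it was 2.17 (adjusted p = 0.0186) and in pools 8 to 12 alone 1.11 (adjusted p = 0.239). CC079 hosts are only in the former set, and CC036 and CC075 hosts only in the latter. Pool and strain thus cannot be told apart in these sets. Tumor medians of macrophage depth in aPD1 tumors were 2908 to 4555 UMIs per cell in responders, and 2972.5 to 5542 in the other class. The 9 T/NK marker genes summed to 5.6 to 57.9 CPM in responder and 3.2 to 10.0 CPM in non-responder macrophages, against 3049 to 6574 CPM in T/NK cells of the same tumors, and their part in the Cxcl9 difference was not tested.

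**Figure D2:**
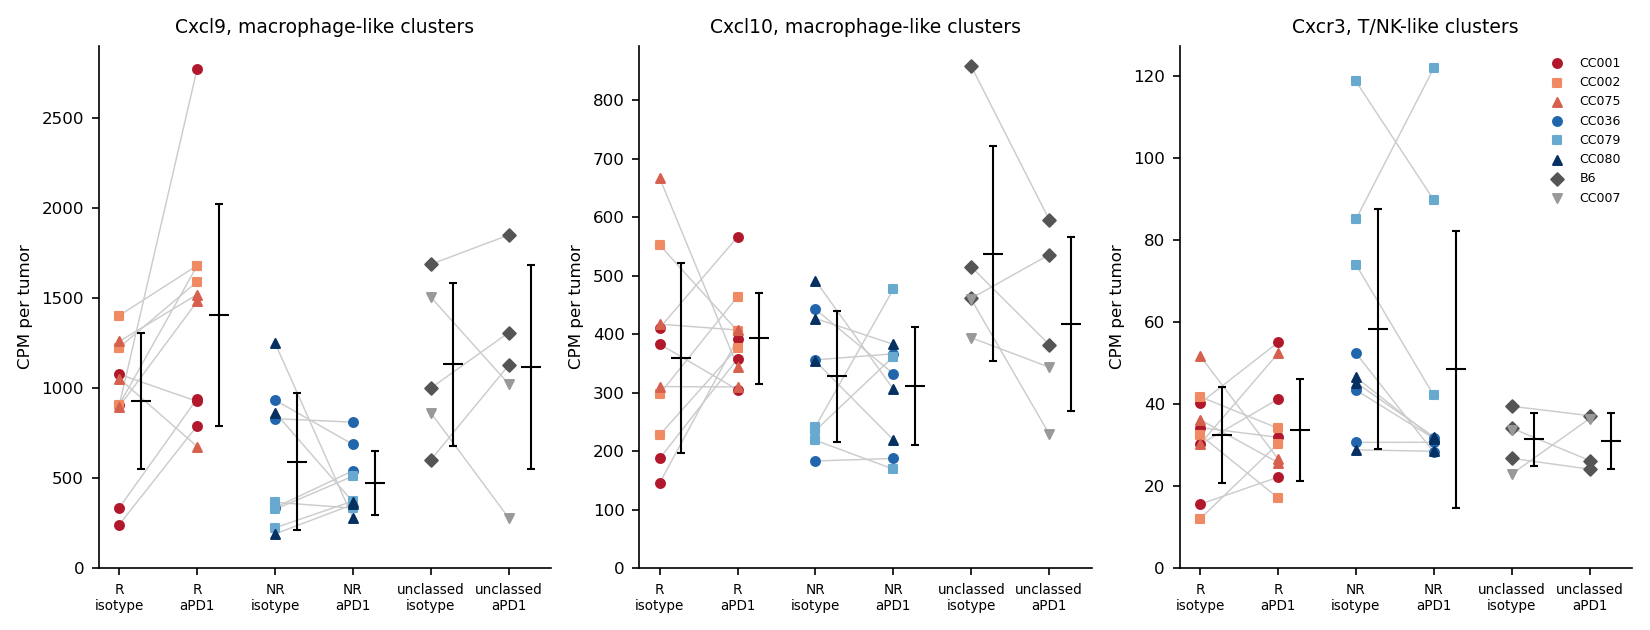
Cxcl9 and Cxcl10 of macrophages and Cxcr3 of T/NK cells in CPM, 1 point per tumor by class (R responder, NR non-responder, unclassed B6 and CC007) and treatment, with mean and SD as black bars and grey lines between tumors of 1 strain in 1 pool. Macrophage Cxcl9 in responder aPD1 tumors (median 1500) lies mostly above non-responder aPD1 tumors (median 373), while Cxcl10 and T/NK Cxcr3 overlap in all groups.

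No difference in macrophage Cxcl10 passed the test. In aPD1 tumors macrophage Cxcl10 had a lowest tumor of 305, a median of 384 and a highest of 566 CPM in responder hosts and 170, 333 and 477 CPM in non-responder hosts. In isotype tumors these were 146, 347 and 667 CPM and 183, 354 and 492 CPM. The groups overlapped in both treatments, with log2 differences of 0.42 ± 0.23 (SE; adjusted p = 0.291) and 0.14 ± 0.23 (SE; adjusted p = 1.00) by edgeR. In cluster 21, where Cxcl10 was highest, the aPD1 difference was 0.18 ± 0.18 (SE; 95% interval -0.18 to 0.53; adjusted p = 0.744), with medians of 1880 and 2063 CPM. Over clusters 2, 5 and 26 it was 0.73 ± 0.28 (SE; adjusted p = 0.104). The share of macrophages with a Cxcl10 UMI at 1000 UMIs per cell was 14.01% ± 2.91 (SD, n = 10) in responder and 10.4% ± 2.52 (SD, n = 9) in non-responder aPD1 tumors, which did not hold after adjustment (two-sided exact permutation p = 0.00957, adjusted 0.0638). At 2000 UMIs per cell the difference was 4.98 percentage points and passed (adjusted exact permutation p = 0.0407).

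Whether the ligands differed by unequal amounts was tested on their ratio within a tumor. UMIs of a 5′ assay count transcripts irrespective of length, so the genes were compared without a length term. The log2 ratio of macrophage Cxcl9 to Cxcl10, with 1 count added to each, was 1.74 ± 0.44 (SD, n = 10) in responder and 0.59 ± 0.62 (SD, n = 9) in non-responder aPD1 tumors. The difference of 1.15 had a two-sided exact permutation p = 0.000455, 0.00455 after adjustment over the 20 tests. The ranges of 1.01 to 2.29 and -0.13 to 1.53 overlapped, with CC036 tumors at 1.15, 1.53 and 1.05. Tumors were permuted, and no test of the ratio or of the shares took strains as replicates. Of macrophages in aPD1 tumors, cluster 21, high in Cxcl10, was a median of 4.65% in responders and 6.32% in non-responders. Clusters 2 and 26 were 33.0% and 24.8% against 28.1% and 21.5%, and cluster 5 was 17.1% against 19.0%. The ranges of these shares overlapped, and the part of this makeup in the ratio and in macrophage Cxcl9 was not tested. In isotype tumors the ratio was 1.34 ± 0.62 and 0.64 ± 0.72 (SD), a difference of 0.70 with an exact permutation p = 0.0329 that did not hold after adjustment (0.101). Within pools 1 to 5 the aPD1 difference was 1.67 and within pools 8 to 12 it was 0.52, with exact permutation p-values of 0.0794 and 0.767 after adjustment. These sets of pools differ in strain, as said above. Over macrophages pooled within a group at 1000 UMIs per cell, 34.0% of cells held Cxcl9 in responder and 13.5% in non-responder aPD1 tumors, and of those with Cxcl10 57.8% and 31.7% also held Cxcl9. The share with both ligands was 1.70 times the product of the single shares in responder and 2.36 times in non-responder aPD1 tumors. The ceiling of this ratio is lower where more cells hold Cxcl9, so it does not rank the classes.

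**Figure D3:**
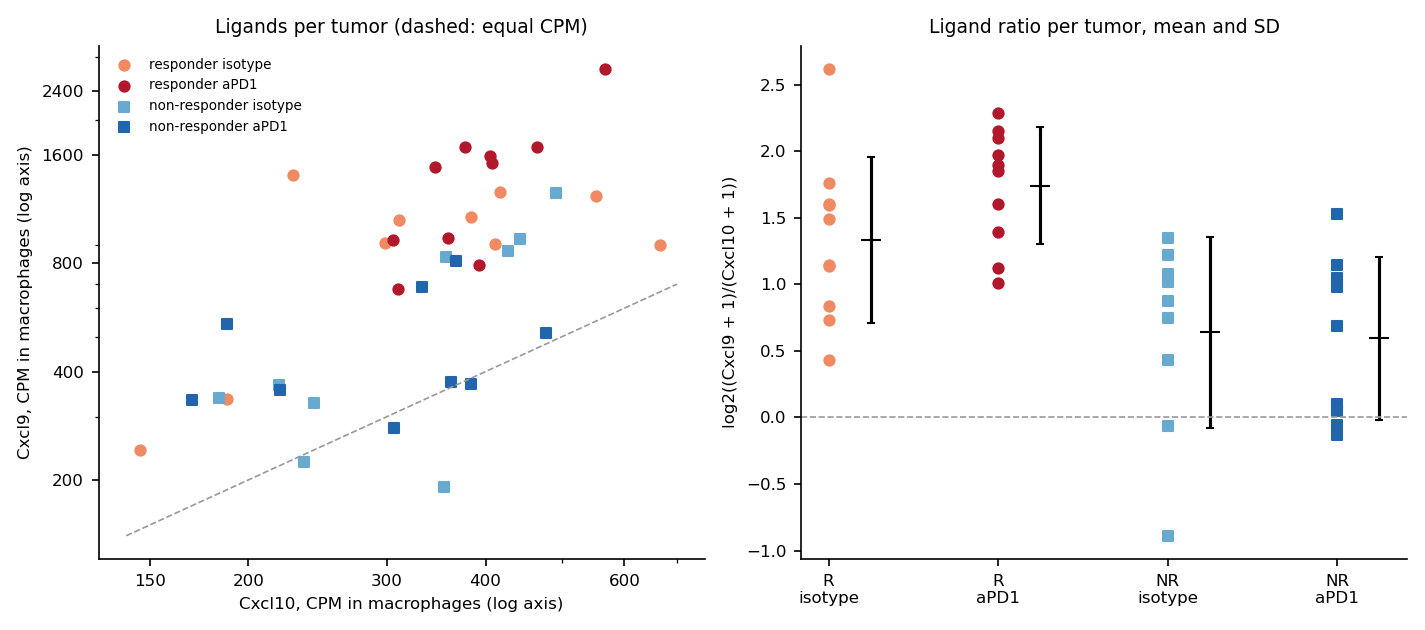
Left, macrophage Cxcl9 against Cxcl10 per tumor in CPM on log axes, with a dashed line of equal level. Right, the log2 ratio of the ligands per tumor by class and treatment with mean and SD. The mean was higher in responder aPD1 tumors (1.74) than in non-responder aPD1 tumors (0.59), with overlapping ranges.

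The comparison of aPD1 with isotype asks what a single dose changed within 48 h, and no member passed it. In responder hosts macrophage Cxcl9 differed by 0.66 ± 0.32 (SE) on the log2 scale (95% interval 0.04 to 1.28; adjusted p = 0.713 by edgeR), and it was higher with aPD1 in 8 of 10 pairs of 1 strain in 1 pool. Over these pairs the mean log2 difference was 0.65 ± 0.79 (SD), while the edgeR fit was not paired. In non-responder hosts macrophage Cxcl9 differed by -0.34 ± 0.33 (SE; adjusted p = 1.00). It was higher in 4 of 9 pairs there, with a mean over pairs of -0.12 ± 1.03 (SD). The interaction of class and treatment was 1.00 ± 0.46 (SE; 95% interval 0.10 to 1.90; adjusted p = 0.868). In cluster 21 Cxcl9 was higher with aPD1 in 8 of 9 responder pairs and 3 of 8 non-responder pairs, with an interaction of 1.29 ± 0.33 (SE; adjusted p = 1.00). For macrophage Cxcl10 the effects were 0.19 ± 0.22 and -0.09 ± 0.23 (SE), with 5 of 10 and 4 of 9 pairs higher. By edgeR 0% of genes passed in macrophages in responder hosts, in non-responder hosts and in the interaction. At an unadjusted threshold of 0.05 the counts were 821, 91 and 680 of 11873, and DESeq2 called 2, 0 and 1.

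In cDC1-like, cDC2-like and migratory DC-like cells no Cxcl9 difference between classes, or between treatments in responders, passed the test, and the other comparisons were not fitted there. In cDC1-like cells its median was 347 CPM in 6 responder aPD1 tumors (269 to 967) and 164 CPM in 5 responder isotype tumors (129 to 300), with 328 CPM (5 tumors) and 302 CPM (8 tumors) in non-responders. The log2 differences between classes were 0.81 ± 0.40 (SE) with aPD1 and -0.80 ± 0.40 (SE) with isotype, and that between treatments in responders was 1.21 ± 0.41 (SE), with adjusted p-values of 0.747, 0.807 and 1.00 by edgeR. In these 3 comparisons 0.113%, 0.0452% and 0% of 4423 genes passed, the last with 176 genes at an unadjusted threshold of 0.05. In migratory DC-like cells Cxcl9 medians were 304 CPM in responder and 590 CPM in non-responder aPD1 tumors and 574 and 157 CPM in isotype tumors. Its differences of -0.58 ± 0.48, 1.35 ± 0.56 and, between treatments in responders, -0.61 ± 0.54 (SE) had adjusted p-values of 0.846, 0.811 and 0.999 by edgeR, where 0.196%, 0.0326% and 0% of 3065 genes passed (105 at an unadjusted threshold of 0.05 in the last). In cDC2-like cells, the largest dendritic group, Cxcl9 differed by 0.25 ± 0.36 (SE; adjusted p = 0.961 by edgeR) between classes with aPD1, 0.41 ± 0.39 (SE; adjusted p = 1.00) with isotype and 0.31 ± 0.38 (SE; adjusted p = 1.00) between treatments in responders, where 0.251%, 0.111% and 0% of 7179 genes passed (348 at an unadjusted threshold of 0.05 in the last). DESeq2 was not run on the dendritic cells.

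Within T/NK cells no difference in Cxcr3 between classes or treatments passed the test. Isotype tumors of responder hosts had a lowest tumor of 12.1, a median of 33.4 and a highest of 51.8 CPM, and those of non-responder hosts 28.9, 46.5 and 119 CPM. The log2 difference was -0.75 ± 0.26 (SE; 95% interval -1.27 to -0.24; adjusted p = 0.280 by edgeR, where 0.365% of 6840 genes passed, 25 genes, or 95 with the pool as a block). CC079 tumors accounted for the top of the range, at 85.1, 119 and 74.1 CPM with isotype and 122, 89.8 and 42.1 CPM with aPD1, and without CC079 the isotype difference was -0.29. In aPD1 tumors the ranges were 17.2 to 55.1 (median 31.1) and 28.3 to 122 CPM (median 31.7), a difference of -0.16 ± 0.28 (SE; 95% interval -0.71 to 0.40; adjusted p = 0.920), where 0.219% of genes passed (15, or 68 with the pool as a block). T/NK Cxcr3 was higher with aPD1 in 5 of 10 responder pairs and 2 of 9 non-responder pairs. Treatment differed by 0.04 ± 0.26 (SE) in responders and -0.56 ± 0.29 (SE) in non-responders, with an interaction of 0.60 ± 0.39 (SE), all at an adjusted p = 1.00. In these 3 comparisons edgeR called 0% of genes, with 191, 162 and 228 of 6840 at an unadjusted threshold of 0.05, and DESeq2 called 0 in each.

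The makeup of T/NK cells differed beside these values. By group median, cluster 3, where Cxcr3 was low, was 36.8% of T/NK cells in responder isotype tumors and 30.2% in responder aPD1 tumors, against 10.9% and 9.2% in non-responders. Cluster 7, where Cxcr3 was highest, was 16.6% and 21.1% against 30.2% and 28.4%. Cluster 8, the next highest in Cxcr3, was 15.1% and 18.4% against 15.9% and 34.7%. Within cluster 7 alone the isotype difference in Cxcr3 was -0.38 ± 0.34 (SE; adjusted p = 0.933) and within cluster 8 it was -0.07 ± 0.40 (SE; adjusted p = 1.00). At 1000 UMIs per cell, 3.87% ± 1.36 (SD, n = 10) of T/NK cells in responder and 6.43% ± 2.94 (SD, n = 9) in non-responder isotype tumors held a Cxcr3 UMI (two-sided exact permutation p = 0.0211, adjusted 0.101). Without CC079 this isotype difference was -0.89 in place of -2.56 percentage points. With aPD1 the shares were 4.02% ± 1.77 and 4.61% ± 1.85 (adjusted exact permutation p = 0.583). The part of the makeup in the T/NK values was not tested further.

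Summed over all cells, Cxcr3 was higher in responder than in non-responder aPD1 tumors. The lowest, median and highest tumors were at 2.19, 5.05 and 9.25 CPM against 1.16, 2.09 and 3.67 CPM, so that the ranges overlapped between 2.19 and 3.67. The log2 difference was 1.22 ± 0.31 (SE), or 2.32-fold (adjusted p = 0.0228 by edgeR, where 2.34% of 13503 genes passed). In such a sum fewer cells of a type and less RNA per cell cannot be told apart. With aPD1, T/NK cells were a median of 12.8% of cells (lowest 6.30, highest 33.5) in tumors of responder hosts. In tumors of non-responder hosts they were 5.02% (lowest 1.42, highest 11.2). Their part in the Cxcr3 difference was not tested. The call was lost without CC002, CC075 or CC079 (adjusted p = 0.0514, 0.170 and 0.183), in either set of pools, and with strains as replicates (1.25, adjusted p = 0.253). In isotype tumors the difference was -0.58 ± 0.30 (SE; adjusted p = 0.892; 0.222% of genes passed), with 2 non-responder tumors at 16.3 CPM (CC080, pool 4) and 13.1 CPM (CC036, pool 8) in which T/NK cells were 31.7% and 45.4% of cells. Median all-cell Cxcr3 was 3.87 CPM in responder and 4.55 CPM in non-responder isotype tumors, while T/NK cells were a median of 11.4% and 7.16% of cells.

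Between treatments, all-cell Cxcr3 in non-responder hosts was higher with aPD1 in 2 of 9 pairs, but the log2 difference of -1.36 ± 0.31 (SE) had an adjusted p = 1.00 by edgeR over all genes. In responders it was 0.44 ± 0.29 (SE), and the interaction was 1.79 ± 0.43 (SE; adjusted p = 0.680). In these comparisons 0% of genes passed. At an unadjusted threshold of 0.05 the counts were 590 in responders, 512 in non-responders and 897 in the interaction, and DESeq2 called 0, 0 and 1 of 13503 genes.

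Macrophage Cxcl9 was correlated with the Ifng of its tumor by Pearson's r within both classes, and by rank over responder tumors. Over 20 responder tumors Pearson's r between log2 CPM of macrophage Cxcl9 and of all-cell Ifng was 0.58 (permutation p = 0.00414, adjusted over 6 relations 0.0247), and Spearman's rho was 0.67 (permutation p = 0.00144, adjusted 0.00864). Pearson's r was 0.63 without the 2 tumors farthest from the median of Ifng, 0.61 in pools 1 to 5 and 0.68 in pools 8 to 12. Over 18 non-responder tumors r was 0.61 (permutation p = 0.00824, adjusted 0.0247) and rho 0.53 (permutation p = 0.0262, adjusted 0.0785). Without the 2 farthest tumors that r fell to 0.42, so it rests in part on them, and it was 0.68 and 0.52 within the sets of pools. For Cxcl10 r was 0.38 in responders and 0.31 in non-responders (permutation p adjusted 0.188 and 0.309), with rho of 0.36 and 0.27 (permutation p adjusted 0.175 and 0.337). Macrophage Cxcl9 and all-cell Cxcr3 had r of 0.20 and 0.19 and rho of 0.36 and -0.12 (smallest permutation p adjusted 0.175), and in non-responders r was -0.59 without the 2 farthest tumors. These tumors come as isotype and aPD1 pairs of 1 strain in 1 pool, which the permutations over tumors do not take into account. Over the means of the pairs, added after seeing the data, r between Cxcl9 and Ifng was 0.81 in 10 responder pairs (permutation p = 0.00330, adjusted 0.0198) and 0.78 in 9 non-responder pairs (exact permutation p = 0.0161, adjusted 0.0484), with rho of 0.73 and 0.82 (both adjusted permutation p = 0.0620, the latter exact). For Cxcl10 and Ifng it was 0.70 and 0.34 (adjusted permutation p = 0.0545 and exact 0.444), and for Cxcl9 and all-cell Cxcr3 0.54 and 0.23 (0.120 and exact permutation 0.588).

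**Figure D4:**
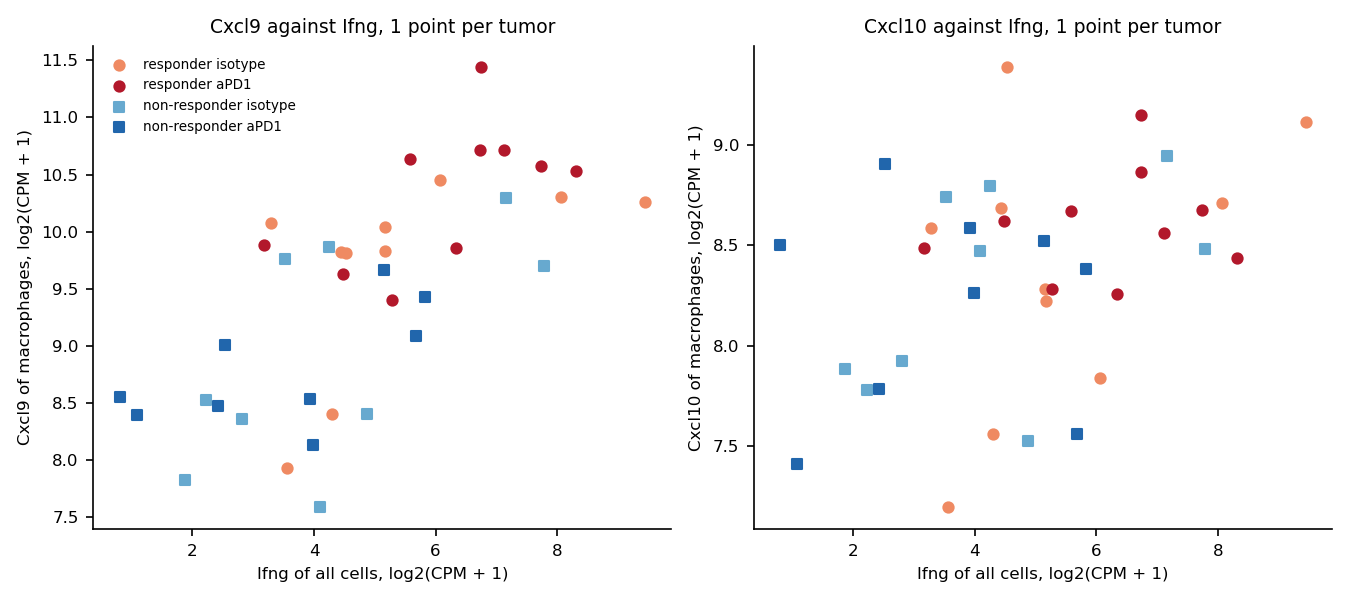
Macrophage Cxcl9 and Cxcl10 against Ifng of all cells, both as log2(CPM + 1), 1 point per tumor of the classed strains. For Cxcl9 r was 0.58 in responder and 0.61 in non-responder tumors, and for Cxcl10 0.38 and 0.31.

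Other chemokine and interferon-γ pathway genes were taken from lists. In macrophages of aPD1 tumors, the interferon-γ response genes Irf1 (0.78, adjusted p = 0.131) and Socs1 (0.79, adjusted p = 0.0695) did not pass edgeR's test. Of 6 other CXC ligand genes 2 passed, the B cell attractant Cxcl13 at 4.84 ± 1.12 (SE; adjusted p = 0.00670) and the CXCR6 ligand gene Cxcl16 at 0.53 ± 0.12 (SE; adjusted p = 0.00694). Of 12 CC ligand genes 1 passed, Ccl5, an attractant of T cells, at 2.29 ± 0.47 (SE; adjusted p = 0.00222). All 3 were higher in responder hosts, as Cxcl9 was, in a comparison where 6.44% of all genes passed. No gene passed among 7 receptors, with Ccr7 at 2.03 ± 0.70 (SE; adjusted p = 0.0741) and S1pr1 at -0.69 ± 0.43 (SE) at the ends, among 4 transcription partners of CXCR3 (Stat4 0.74, Runx3 0.03) or among 3 ligand-processing and decoy genes (Ackr3 0.95, Sdc4 0.34). Ccl24 (-1.26 ± 0.85, SE) and Cxcl1 (-0.96 ± 0.54, SE) stood at the low ends of their lists, and Pf4, the platelet factor 4 gene, was at -0.36 ± 0.39 (SE). List medians ran from -0.42 for CC ligands to 0.94 for the processing genes, with 0.00 over all genes.

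The calls on these 3 genes depended on the samples used. Each was lost in pools 1 to 5 alone, in pools 8 to 12 alone and with strains as replicates. Cxcl13 was also lost without CC001 (2.94, adjusted p = 0.0729) or CC080 (4.44, adjusted p = 0.0506). No list gene passed in the other macrophage comparisons or in any comparison of T/NK cells. In T/NK cells of aPD1 tumors, interferon-γ genes ran from Jak2 (-0.30) to Ifng (1.06), 6 transcription partners from Eomes (-0.33) to Il12rb2 (0.83), 8 receptors from Cxcr4 (-1.07) to S1pr1 (0.86) and 3 CC ligands from Ccl5 (0.10) to Ccl3 (0.87), with list medians of -0.16, 0.15, 0.24 and 0.70 against 0.00 over all genes. Over all cells in aPD1 tumors, where 2.34% of genes passed, Cxcl9 (1.42), Cxcl13 (4.58), Ccl5 (1.69) and Cxcr3 passed, the last with the losses of call given above.

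**Figure D5:**
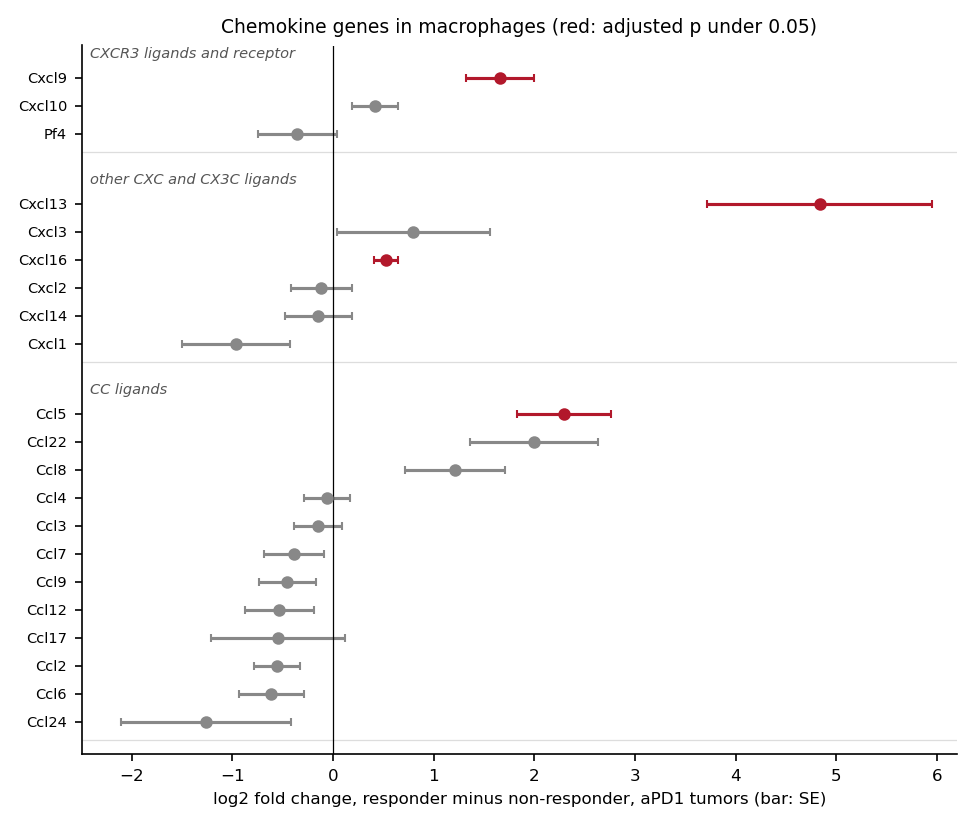
Log2 difference of responder minus non-responder aPD1 tumors in macrophages for the tested genes of 3 lists, with SE bars and genes past an adjusted p of 0.05 in red. The genes that passed the test, Cxcl9, Cxcl13, Cxcl16 and Ccl5, all lie to the right of 0.

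By Pearson's correlation of log2 levels, given as a description, the ligands had different closest genes. Over the macrophages of 48 tumors, which share libraries, Cxcl9 was closest to Serpina3g (r = 0.91), AW112010 (0.89), Tapbpl (0.88), an editor of MHC class I peptides, Slamf8 (0.86) and the guanylate-binding protein gene Gbp6 (0.86), with Cxcl10 at rank 104 of 7880 genes (r = 0.62). Cxcl10 was closest to the immunoproteasome gene Psmb10 (0.77), the proteasome activator gene Psme1 (0.75), the interferon-induced GTPase genes Ifi47 (0.75) and Igtp (0.73), and Mlkl (0.73), an effector of necroptosis, with Cxcl9 at rank 42. Over the 27 clusters Cxcl9 was closest to F11r, Slamf8, BC028528, Zfp385a and Cxcl16 (0.89 to 0.91) and Cxcl10 to Irgm1, Gbp2, Xaf1, Isg15 and Ifit3 (0.80 to 0.90). Over T/NK cells of 47 tumors Cxcr3 was closest to Ebi3 and Ctsz (0.72) and Itgb7, Cd2 and Rab37 (0.70), and its r with Ifng was -0.37. Over clusters it was closest to Ptprcap, Slain1, Sept1, Tigit and Tbc1d10c (0.87 to 0.89). The authors' clusters were made from these counts, so the likeness over clusters is a description.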

How the data were processed

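Frozen MC38 tumors were dissociated, sorted and sequenced by droplet single-cell RNA-seq (10x Genomics 5′ chemistry with antibody hashtags). The authors counted UMIs with Cell Ranger on GRCm38 and GENCODE annotation, removed cells with high mitochondrial or ribosomal content, and clustered the cells with Seurat after batch correction by processing date. The deposited matrix holds raw counts, and all its 150064855 entries were whole numbers. Tumors were taken from the deposited cell table as pool, strain and treatment. No doublet caller was run and the study's methods state no doublet removal.

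Counts were summed per tumor for macrophages, T/NK cells, other groups and all cells, with at least 20 cells per tumor. Clusters were named where at least 3 markers of a list, and 50% of it, stood at 100 CPM or more and the leading genes did not go against the name. Differences were tested with edgeR 4.0.16 (quasi-likelihood, TMM, filterByExpr, 4 groups of class and treatment) with Benjamini-Hochberg adjustment over all genes tested at 0.05. DESeq2 1.42.0, library size alone, no filter, the pool as a block, each strain left out, sets of pools and sums per strain were alternatives. Shares used cells thinned to 1000 UMIs, with exact permutation tests over tumors (R 4.3.3, scipy 1.17.1), relations 100000 permutations. The SE of a log2 difference was derived from that difference and the F statistic of edgeR's test. The 95% intervals use this SE with a normal approximation, so they are somewhat narrower than the p-values of the test imply. Like the p-values they measure the spread between tumors. Shares of cells pooled over tumors carry counting error and no tumor spread.

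Tumors of 1 pool shared a library by the labels. In macrophages, deviations from group means over 7912 genes correlated at a median of 0.36 between same-pool tumors of different groups (53 pairs, -0.41 to 0.79), of 0.52 between the isotype and aPD1 tumor of 1 strain in 1 pool (19 pairs) and of -0.06 between tumors of different pools (488 pairs). Tumors of 1 pool thus tended to deviate together, and the main edgeR fit took no account of pool or pair. The fit with the pool as a block is given where it moved a count of calls. No edgeR fit took the pair of 1 strain in 1 pool as the block.

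Counts were also simulated, with a fixed spread for all genes and no strain or pool effect. On these the edgeR step recovered 80.4% of 2-fold and 100% of 4-fold changes in macrophages (11873 genes, 6 false calls). In T/NK cells it recovered 79.2% of 2-fold changes (6840 genes, 10 false calls). The real tumors differ by strain and pool, so these shares do not give the power of the tests above. The members and gene lists were chosen with earlier results of these data known. Genes named are the members, the list genes that passed or stood at the ends of their lists, and the 5 genes closest to each member among those with a mean of at least 10 CPM. Leading genes of clusters and the other list genes printed were chosen after their values were seen. Some results on list genes are not reported here.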

Additional observations from a re-analysis of the deposited data

Results flagged for a closer look

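Among 32 groups of 4 to 10 tumors examined, 1 held a tumor far from the others, where chance marks about 1 in 20 groups. In macrophages of responder aPD1 tumors, Cxcl9 was at 2773 CPM in the CC001 tumor of pool 2, and the nearest tumor was at 1681 CPM. The group of 10 ran from 676 CPM with a median of 1500 CPM, and the gap was 0.521 of the range. Without that tumor the class difference was 1.48 on the log2 scale (adjusted p = 0.00683 by edgeR). Its cause was not tested.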

How the results depend on the processing

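Of 632 values under alternatives, 560 kept their direction and side of the threshold, 37 changed direction, 30 lost the call and 5 gained it, and the causes were not tested. Of 160 counts of genes, 125 stayed within 1.5 times. The sets of pools also differ in strain, as said above. Log2 differences come first. In pools 1 to 5 alone, Cxcl10 was -0.090 (class, isotype) and 0.073 (treatment, non-responders), T/NK Cxcr3 -0.075 (treatment, responders) and all-cell Cxcr3 1.06 (class, aPD1). In pools 8 to 12 alone, Cxcl9 was 1.11 (class, aPD1) and 0.051 (treatment, non-responders), Cxcl10 -0.11 (treatment, responders), T/NK Cxcr3 0.13 and all-cell Cxcr3 1.39 (class, aPD1). Summed per strain, Cxcl9 was 1.60 and all-cell Cxcr3 1.25 (class, aPD1), and T/NK Cxcr3 -0.026 (treatment, responders), and -0.034 without tumors under 500 cells. In cluster 21 Cxcl10 was -0.28 (treatment, responders) and -0.14 (interaction), and over clusters 2, 5 and 26 0.11 (treatment, non-responders). T/NK Cxcr3 was 0.24 in cluster 8 and 0.015 in cluster 7 (class, aPD1) and -0.35 and -0.19 (treatment, responders). Clusters 1 and 13 could not be fitted, and Cxcr3 did not pass the filter in cluster 3.

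Genes that passed in macrophages numbered, for class in isotype tumors, 73 with DESeq2, 10 in pools 8 to 12, 4 per strain and 58 without the shared animal identifier. For class in aPD1 tumors they numbered 148 and 70 in the sets of pools, 17 per strain and 509 without the CC001 tumor of pool 2. DESeq2 gave 2 for treatment in responders and 1 for the interaction. In T/NK cells, class in isotype tumors gave 44 with DESeq2, 66 without the filter, 16 and 1 in the sets of pools and 5 per strain, and class in aPD1 tumors 44, 51, 2 in pools 8 to 12 and 4 per strain. With the pool as a replicate block, macrophages gave 69, 1398, 2 (treatment, responders) and 1 (interaction), and T/NK cells 95 and 68. The block changed no call on a member.

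The Cxcl9 share differed by 26.1 and 13.02 points (class, aPD1) in the sets of pools. The Cxcl10 share differed by -0.926 (class, isotype, pools 1 to 5), by -0.0193 (treatment, responders, pools 8 to 12), and by 4.98 (class, aPD1) at 2000 UMIs, where it passed (adjusted exact permutation p = 0.0407). The Cxcr3 share differed by 0.126 (class, aPD1, pools 8 to 12) and -0.0213 (treatment, responders, pools 1 to 5). The ligand ratio differed by 1.67 and 0.52 (class, aPD1), and in pools 8 to 12 by 0.53 (treatment, non-responders) and -0.043 (interaction).

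Leaving out each strain in turn gave these ranges. Macrophage Cxcl9 ran from 0.34 to 0.94 (class, isotype), 0.40 to 0.83 and -0.57 to 0.12 (treatment, responders and non-responders) and 0.53 to 1.23 (interaction), and Cxcl13 from 2.94 to 7.46 (class, aPD1). Cxcl10 ran from -0.074 to 0.40 (class, isotype), -0.045 to 0.45 and -0.36 to 0.19 (treatment, responders and non-responders), and -0.0092 to 0.56 (interaction). T/NK Cxcr3 ran from -0.97 to -0.29 and -0.36 to 0.16 (class, isotype and aPD1), -0.17 to 0.14 (treatment, responders) and 0.39 to 0.70 (interaction), and all-cell Cxcr3 from -0.75 to -0.30 and 0.99 to 1.44 (class, isotype and aPD1) and 0.15 to 0.64 (treatment, responders). Counts ran from 24 to 74 and 324 to 941 in macrophages, 13 to 84 and 12 to 55 in T/NK cells (class, isotype and aPD1), and 0 to 1 for treatment in responder T/NK cells. Cxcl9 shares ran from 5.36 to 13.8 (class, isotype), 3.64 to 10.04 and -6.51 to 0.0143 (treatment, responders and non-responders) and 6.94 to 13.7 (interaction). Cxcl10 shares ran from -1.06 to 2.06 and 3.06 to 4.49 (class), 0.110 to 4.61 and -2.25 to 0.443 (treatment), and 1.04 to 5.55 (interaction). Cxcr3 shares ran from -3.47 to -0.890 (lowest in size without CC079) and -1.21 to 0.296 (class, isotype and aPD1), -0.558 to 0.571 and -2.33 to -1.04 (treatment, responders and non-responders) and 1.19 to 2.48 (interaction), and the ligand ratio from -0.16 to 0.094 (treatment, non-responders). Cxcr3 had few UMIs, and its intervals are wide.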
